A study of Mus musculus with 17 samples.

Results

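The regions described here are stretches of the mouse genome at which a WT1 peak was called in every group of an experiment on podocyte injury. They were chosen by the peak calls themselves: the peaks of all 5 lists were merged into 1 region wherever they overlapped or touched, and a region became a member when it held at least 1 peak of each list. This gave 4666 constitutive regions among 41766 merged regions (11.2%). The count depends on the calls admitted: it was 2714 with a −log10 q (the caller's adjusted significance) of at least 10 in each list, and 2541 with each list trimmed to the length of the shortest. The word constitutive stands for this rule only, a peak in each list, and not for equal binding. All positions are in mm9.

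WT1 was immunoprecipitated with the antibody sc-192 from the chromatin of mice aged 7 to 8 weeks, labelled wildtype throughout. Isolated glomeruli of BALB/cJ mice came from animals given ADR (adriamycin, the anthracycline doxorubicin, which injures podocytes; 4 libraries) or PBS (phosphate-buffered saline, the vehicle; 4 libraries). Podocytes purified from mice of a Cre reporter strain, in which recombination switches the fluorescent colour of podocytes, came from PBS animals (3 libraries) and from animals on day 9 (2 libraries) and day 14 (2 libraries) of ADR. With 2 glomerular inputs these made 17 samples, 15 of them immunoprecipitations. Each glomerular immunoprecipitation used the glomeruli of 2 kidneys. The labels give a day for neither glomerular group nor for PBS podocytes. The glomerular and podocyte groups also differ in strain, so tissue and strain cannot be told apart. Isolated glomeruli hold endothelial and mesangial cells beside podocytes, and in them fewer podocytes and less WT1 bound per podocyte cannot be told apart. The files hold binding sites and no expression, so the labelled cell types were not checked against marker genes.

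WT1 is a zinc-finger transcription factor that binds DNA directly and can activate or repress its targets. In the kidney it acts first in the progenitors of the nephron and stays on in the adult podocyte, the cell whose foot processes and slit diaphragm form the outer layer of the glomerular filter. Podocytes that lose WT1 lose their filter function, and mutations of the human gene cause childhood kidney tumours and glomerular disease. A site that WT1 occupies both in the resting and in the injured podocyte is one at which its contact with chromatin can be detected with and without injury, at the times sampled.

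Each group was represented by 1 peak list, made by the authors from its libraries, so no value below carries a replicate error and no difference between groups was tested. The lists held 16634 peaks from ADR glomeruli, 29082 from PBS glomeruli, 23402 from PBS podocytes, 31949 from day 9 and 6694 from day 14. Read depth is unknown, and its part in the length of a list was not tested. Signal is the authors' fold enrichment of a peak over background, and for a region with several peaks of a list the strongest was taken. Folds are set on different scales in different lists, so that strength is compared below as a rank within a list. Intervals are exact 95% binomial intervals over regions, which cover counting error only.

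The constitutive regions made up a small share of the longer lists and most of the shortest. They held 30% of the peaks of ADR glomeruli, 17.2% of PBS glomeruli, 20.5% of PBS podocytes, 15% of day 9 podocytes and 71.5% of day 14 podocytes. Membership was therefore limited most often by day 14. On day 14, 5736 regions had a peak in every other list and none there, against 1436 that lacked ADR glomeruli alone, 51 that lacked PBS glomeruli alone, 50 that lacked PBS podocytes alone and 2 that lacked day 9 alone. With the day 14 list left out, 10402 regions had a peak in each of the other 4 lists, and with ADR glomeruli left out 6102. Of the 41766 merged regions, 14400 (34.5%) had a peak in 1 list, 7742 in 2 lists, 7683 in 3 lists and 7275 in 4 lists.

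Within each list the members were drawn mainly from the strong peaks. The rule used these same calls, so the shares describe its outcome. They held 80.5% of the strongest 10% of peaks in ADR glomeruli and 12.4% of the weakest 10%. Of the strongest 10% they held 67.3% in PBS glomeruli, 74.1% in PBS podocytes and 70.4% on day 9. Of the weakest 10% they held 3.4% in PBS glomeruli, 1.45% in PBS podocytes and 1.16% on day 9. Day 14 was different in that both ends of its list were mostly constitutive, with 93.1% of the strongest and 89.1% of the weakest 10%.

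The signal of the members spanned a wide range in each list. In ADR glomeruli the fold enrichment of the 4666 regions ran between 2.91 and 45, with a median of 11.1 (quartiles 7.69 and 16.6), and in PBS glomeruli between 2.5 and 34.8, with a median of 15.7 (quartiles 11.3 and 21). In PBS podocytes it ran between 2.49 and 102 with a median of 14.1, on day 9 between 2.67 and 137 with a median of 20.7, and on day 14 between 2.08 and 59.2 with a median of 6.59. The median over all peaks of a list was lower in each case, at 7.26 in ADR glomeruli, 7.46 in PBS glomeruli, 6.3 in PBS podocytes, 6.82 on day 9 and 6.27 on day 14. The gap between members and all peaks was narrowest on day 14, where most peaks belong to members.

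**Figure D1:**
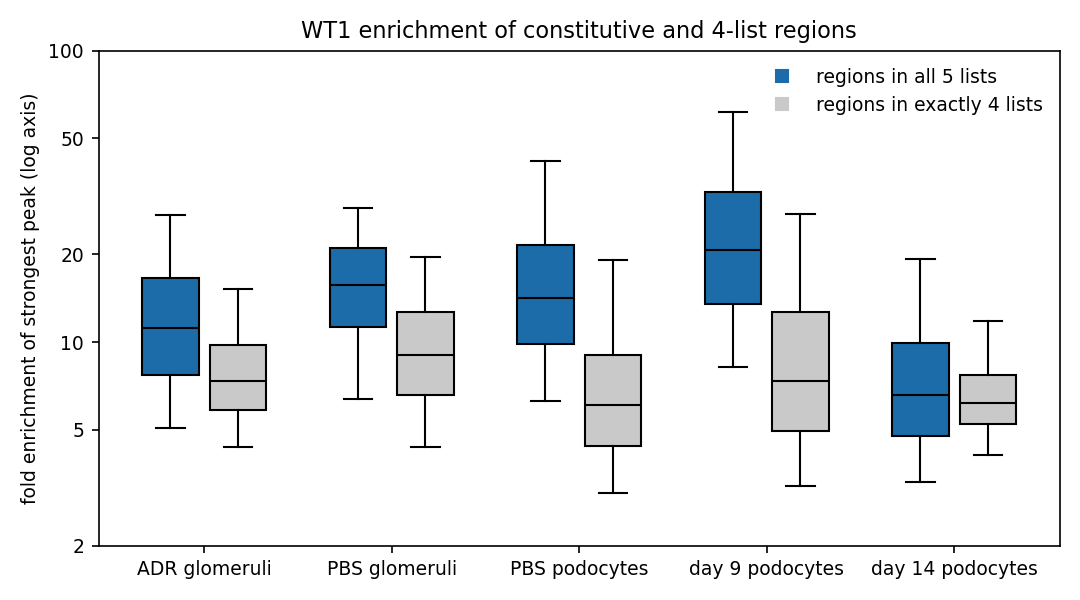
Fold enrichment (log axis) in each list, for constitutive regions and for regions with a peak in 4 lists; boxes span the quartiles around the median line and whiskers the 5th to 95th percentile over regions, and are not errors. The constitutive regions have a median of 20.7 on day 9 and of 6.59 on day 14, and their medians lie above those of the 4-list regions.

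Membership rested on a different list for different regions. The lowest −log10 q came from day 14 in 2200 members (47.1%) and from ADR glomeruli in 2154 (46.2%). It came from PBS glomeruli in 262 members, from PBS podocytes in 49 and from day 9 in 1. The smallest −log10 q of a member was 1.51 in ADR glomeruli, 1.41 in PBS glomeruli, 2.92 in PBS podocytes, 4.29 on day 9 and 2.25 on day 14. The median over members was 18.8 in ADR glomeruli, 42.7 in PBS glomeruli, 78 in PBS podocytes, 122 on day 9 and 17.5 on day 14.

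Members just inside the rule combined faint and firm calls. At chr18:6515969-6516991 the −log10 q was 4.14 in ADR glomeruli, 1.41 in PBS glomeruli, 58.1 in PBS podocytes, 39.2 on day 9 and 2.9 on day 14. At chr2:13475428-13476317 it was 1.51 in ADR glomeruli and between 21.3 and 125 in the other lists. Both regions thus entered through a faint glomerular peak, the first of them also through a faint day 14 peak, and were firmly called in PBS and day 9 podocytes.

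Just outside the rule, few regions missed a list by a short gap. Of the 1436 regions that lacked ADR glomeruli alone, 5 had an ADR glomerular peak within 200 bp, the nearest at 10 bp of chr16:33024104-33024655. Of the 5736 that lacked day 14 alone, 14 had a day 14 peak within 200 bp, the nearest at 63 bp of chr11:75275681-75276356. The median gap was 27.7 kb for ADR glomeruli and 54.8 kb for day 14, so most regions outside the rule had no peak of the missing list near them.

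The regions lost for ADR glomeruli and those lost for day 14 differed in strength. Regions without an ADR glomerular peak had a median fold of 12.7 in PBS glomeruli, 13.3 in PBS podocytes, 19.5 on day 9 and 6.19 on day 14, and 45.9% of them lay at or above the member median in PBS podocytes. Regions without a day 14 peak had medians of 7.34 in ADR glomeruli, 8.53 in PBS glomeruli, 5.35 in PBS podocytes and 6.2 on day 9, and 1.88% of them lay at or above the member median in PBS podocytes. In podocytes, the regions without an ADR glomerular call were thus nearly as strong as the members. Those without a day 14 call were weaker than the members. The calls themselves sorted these sets: the former had to hold a peak of the short day 14 podocyte list, and the latter lacked one. The contrast in podocytes therefore describes the outcome of the rule.

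Most constitutive regions were simple in shape. In 4116 of them (88.2%, interval 87.3% to 89.1%) each list contributed exactly 1 peak, and among regions of 4 lists 91.3% had no more than 1 peak of any list. Several peaks of 1 list were more frequent in glomeruli, in 294 members (6.3%) for ADR and 322 (6.9%) for PBS, than in podocytes, in 122 members (2.61%) for PBS, 133 (2.85%) on day 9 and 113 (2.42%) on day 14. The median width was 792 bp (quartiles 675 and 985, range 400 to 4140), against 615 bp for regions of 4 lists and 285 bp for regions of 1 list. A union of more peaks is wider by construction, so the shared core is the narrower measure. In 4643 members (99.5%) at least 1 base was covered by peaks of all 5 lists, over a median of 319 bp (quartiles 258 and 404). The other 23 were chained together by neighbouring peaks without a common base.

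The summits, the bases at which the caller placed the maximum of each peak, lay close together. The distance between the outermost of the 5 summits of a member had a median of 51 bp (quartiles 33 and 87). It was at most 50 bp in 2290 members (49.1%), at most 100 bp in 3718 (79.7%) and at most 200 bp in 4316 (92.5%). The rule does not use the summits. Overlapping peaks already limit how far apart their summits can lie, and the part of this limit in the spread was not tested.

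Summit spread went with strength. Ordered by mean rank over the lists and divided into 5 equal groups, the members had a median spread of 36 bp in the strongest group, then 45, 50, 57 and 84 bp. Among the 50 strongest members the tightest were chr1:61688328-61689098 and chr17:11706659-11707445, each with 5 summits within 11 bp, and chr13:95033766-95034640 with 14 bp. The widest spread, at a region named after its values were seen, was 1935 bp at chr1:167637807-167640645. In that region the summit of ADR glomeruli was at 167638277 and those of the other lists were between 167640176 and 167640212. Its ADR glomerular maximum thus fell on another of its 13 peaks.

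Between pairs of lists, summits were closer in constitutive regions than in regions of 4 lists. Between ADR and PBS glomeruli the median distance was 13 bp in members and 20 bp in 4-list regions, with 89.8% of members and 79.5% of 4-list regions within 50 bp. Between day 9 and PBS podocytes it was 18 bp in members and 30 bp in 4-list regions, and between day 14 and PBS podocytes 23 bp in members and 28 bp in 4-list regions. Between day 14 and day 9 it was 22 bp in members and 27 bp in 4-list regions, and between PBS podocytes and PBS glomeruli 20 bp in members and 31 bp in 4-list regions. When regions were grouped by fold in the first list, at the quartiles of the members, the gap was smaller at the strong end. The weakest group has no lower bound, so strength was not matched in it. On day 9 the 5th percentile of fold was 3.21 in all 4-list regions and 8.21 in all members. Above the member fold that marks their strongest 25% in the first list, the medians were 10 bp in members and 10 bp in 4-list regions for ADR and PBS glomeruli, and 14 bp in members and 18 bp in 4-list regions for day 9 and PBS podocytes. Below the fold that marks their weakest 25% they were 18 bp in members and 24 bp in 4-list regions for the glomerular pair, and 23 bp in members and 33 bp in 4-list regions for the day 9 pair. There they were also 26 bp in members and 39 bp in 4-list regions for day 14 and PBS podocytes. This gap was wider than without the grouping. For PBS podocytes and PBS glomeruli they were 27 bp in members and 36 bp in 4-list regions. In the middle groups members were not closer for this last pair. At folds of 9.87 to 14.1 in PBS podocytes the medians were 22 bp in members and 22 bp in 4-list regions. At folds of 14.1 to 21.5 they were 20 bp in members and 18 bp in 4-list regions. In the other comparisons members were closer in the middle groups.

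**Figure D2:**
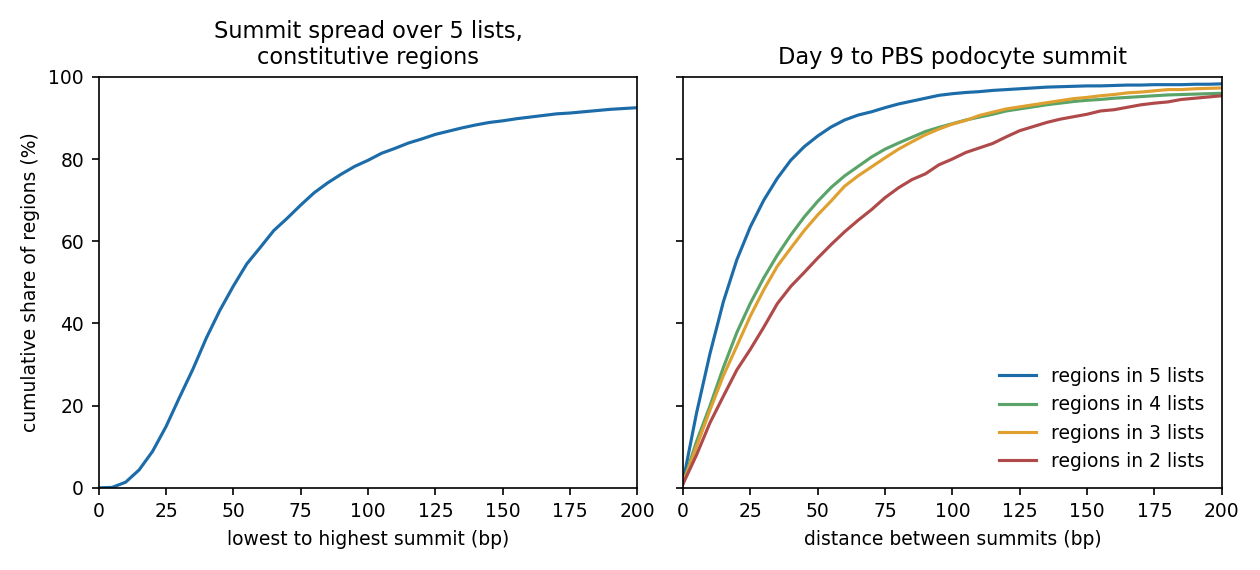
Share of regions (%) whose summits lie within a given distance (bp), for the spread over all 5 lists in constitutive regions and for the distance between day 9 and PBS podocytes in regions of 5, 4, 3 and 2 lists. The spread over 5 lists reaches 49.1% at 50 bp and 79.7% at 100 bp.

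The strongest constitutive regions were picked by their mean rank over all lists. High ranks in every list therefore follow largely from this choice, and the values below describe its outcome. The leading member by mean rank, chr16:50785501-50787303, had a fold enrichment of 36.1 in ADR glomeruli, 34.8 in PBS glomeruli, 102 in PBS podocytes, 137 on day 9 and 59.2 on day 14. It ranked at the top of all 3 podocyte lists, shared the top of PBS glomeruli and was at rank 37 in ADR glomeruli. Its summits lay within 35 bp.

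The second, chr1:174366639-174367559, had folds of 37 in ADR glomeruli, 34.8 in PBS glomeruli, 93.4 in PBS podocytes, 115 on day 9 and 37.1 on day 14, with summits within 36 bp. The third, chr9:51120791-51121598, had 34.1 in ADR glomeruli, 33.8 in PBS glomeruli, 74.3 in PBS podocytes, 109 on day 9 and 43.2 on day 14, with summits within 21 bp. The fourth, chr3:51719696-51721099, had 41.1 in ADR glomeruli, 30.5 in PBS glomeruli, 85.2 in PBS podocytes, 116 on day 9 and 48.1 on day 14. Of these 4, it was the highest in ADR glomeruli, where it held rank 6, and the lowest in PBS glomeruli, at rank 133.

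The fifth, chr10:5165677-5166976, held rank 2 in each podocyte list, with folds of 94.8 in PBS podocytes, 122 on day 9 and 50.7 on day 14. Its glomerular folds were 27.7 in ADR glomeruli, at rank 209, and 34.2 in PBS glomeruli, at rank 8. The other 5 of the leading 10 were chr10:121392578-121393505, chr12:15710836-15711912, chr15:5293505-5294465, chr14:101967768-101968623 and chr13:58136595-58137604. Their folds ran between 27.6 and 36.2 in ADR glomeruli, 30.6 and 34.6 in PBS glomeruli, 46.5 and 71.9 in PBS podocytes, 72.6 and 109 on day 9, and 25.4 and 39.3 on day 14. The worst rank among the leading 10 was 215 in ADR glomeruli, 133 in PBS glomeruli, 170.5 in PBS podocytes, 123 on day 9 and 90 on day 14, so their place was least fixed in ADR glomeruli.

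**Figure D3:**
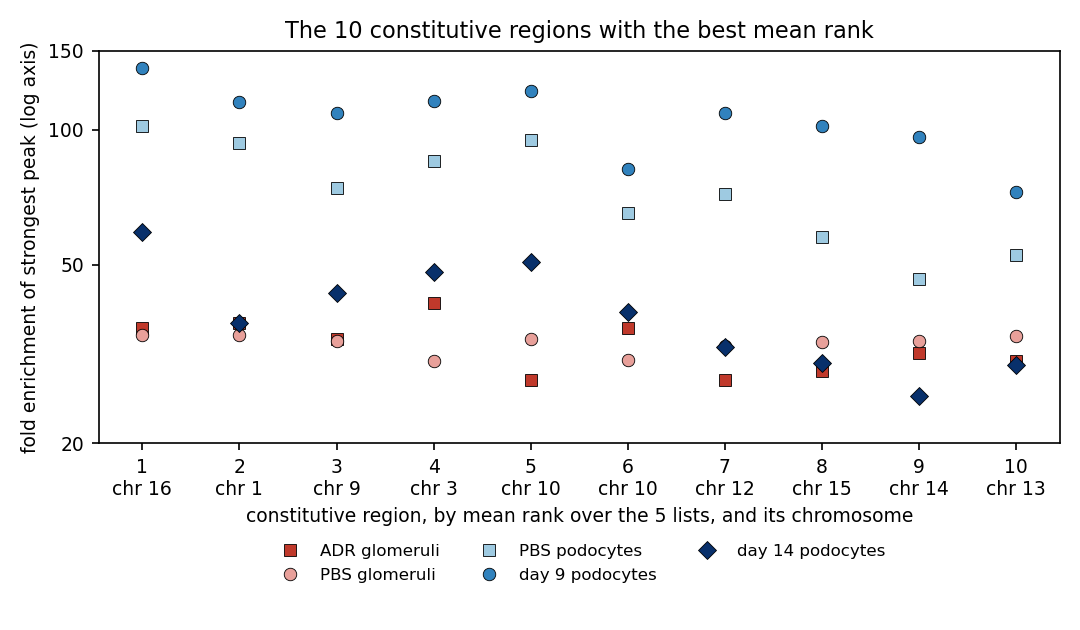
Fold enrichment (log axis) of the 10 constitutive regions with the best mean rank over the 5 lists. The regions stand along the horizontal axis, with 1 marker per list for each region. All 10 lie between 27.6 and 41.1 in ADR glomeruli, and between 72.6 and 137 on day 9.

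Over the 50 leading members the fold ran between 18.3 and 43.5 in ADR glomeruli, 23.3 and 34.8 in PBS glomeruli, 42.2 and 102 in PBS podocytes, 60.9 and 137 on day 9, and 21.1 and 59.2 on day 14. At the other end, the weakest member by mean rank, chr15:96539997-96541123, had folds of 3.33 in ADR glomeruli, 5.65 in PBS glomeruli, 6.33 in PBS podocytes, 5.8 on day 9 and 3.09 on day 14. Its summits still lay within 75 bp. The next weakest, chrX:148667119-148667838 and chr3:41367148-41368107, had spreads of 428 and 138 bp.

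The widest members were clusters of peaks rather than single broad ones. The region chr10:127102526-127106665 spanned 4140 bp and held 13 peaks, of which 4 were from ADR glomeruli, 3 from PBS glomeruli, 2 from PBS podocytes, 1 from day 9 and 3 from day 14. Its strongest peaks had folds of 40.8 in ADR glomeruli, 24.2 in PBS glomeruli, 25.2 in PBS podocytes, 28.4 on day 9 and 12.9 on day 14, with summits within 38 bp. In this region the lists thus split the same stretch into different numbers of peaks and placed its maximum at nearly the same base. The next 4 widest, at chr12:81213764-81216950, chr17:34255929-34258966, chr15:101932044-101935031 and chr1:167637807-167640645, spanned between 2839 and 3187 bp. Their summits were further apart, with spreads of 132, 940, 1382 and 1935 bp in that order.

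The order of strength among the members was well kept within podocytes and poorly kept in ADR glomeruli. Spearman's rho over the 4666 members was 0.872 between day 14 and day 9, 0.78 between day 14 and PBS podocytes and 0.779 between day 9 and PBS podocytes. It was 0.576 between PBS podocytes and PBS glomeruli and 0.317 between ADR and PBS glomeruli. Against podocytes, ADR glomeruli gave 0.173 with PBS podocytes, 0.127 with day 9 and 0.15 with day 14. These are descriptions over regions, which share the libraries and caller settings of their list and are not replicates.

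The caller's p-value gave another picture for ADR glomeruli. With regions ordered by −log10 p, rho was 0.442 between ADR and PBS glomeruli, and 0.421 with PBS podocytes, 0.429 with day 9 and 0.424 with day 14. ADR glomeruli stayed the list least like the others, but no longer less like podocytes than like PBS glomeruli by a wide margin. Within podocytes the values were 0.824 between day 14 and day 9, 0.732 between day 14 and PBS podocytes and 0.747 between day 9 and PBS podocytes.

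**Figure D4:**
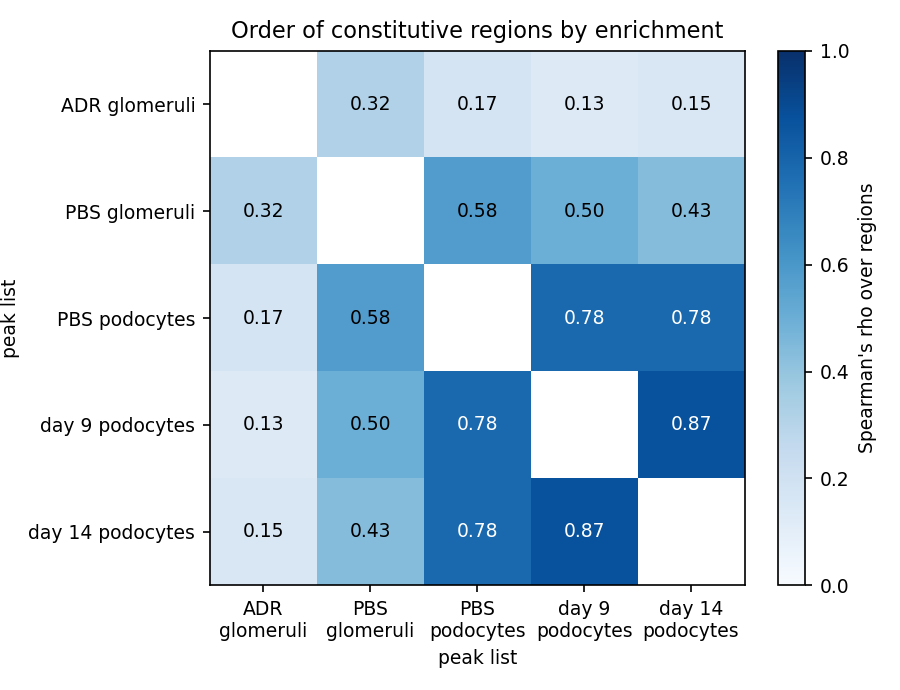
Spearman's rho of fold enrichment over the 4666 constitutive regions for the 10 pairs of lists, as a matrix of the 5 lists. The podocyte pairs lie between 0.779 and 0.872 and the pairs of ADR glomeruli between 0.127 and 0.317.

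In regions shared by 2 lists but outside the members, the order was kept less well in podocytes. There rho was 0.598 between day 14 and day 9 (1881 regions), 0.545 between day 14 and PBS podocytes (1642 regions) and 0.722 between day 9 and PBS podocytes (15377 regions). Between ADR and PBS glomeruli it was 0.383 over 8566 such regions, and so higher than among members. The range of fold differs between members and other regions, and its part in rho was not tested.

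The strongest 10% of the members, 467 regions in each list, overlapped in the same way. Of the strongest 10% on day 14, 355 members (76%) were in that of day 9 and 345 (73.9%) in that of PBS podocytes, and 339 (72.6%) were shared by day 9 and PBS podocytes. PBS podocytes and PBS glomeruli shared 219 (46.9%), and ADR and PBS glomeruli shared 102 (21.8%). The share held by 1 list alone was 64.9% in ADR glomeruli (303 members) and 34.9% in PBS glomeruli (163 members). It was 45 members in PBS podocytes, 50 on day 9 and 48 on day 14.

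A group of 295 members (63.2% of the 467) was in the strongest 10% of all 3 podocyte lists. Of these, 73 were also in the strongest 10% of ADR glomeruli and 154 in that of PBS glomeruli. By contrast 13 of them were in the weakest 10% of ADR glomeruli and 0 in that of PBS glomeruli. In all, 39 members were in the strongest 10% of all 5 lists, and 3 were in the weakest 10% of all 5.

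To see how far single regions changed their place, the regions common to 2 lists were ranked in each list as percentiles, 100 being the strongest, and a difference of at least 25 percentile points was counted. The rule drew on the same lists, so these counts are descriptions, and the share over all common regions is the background to them. In ADR against PBS glomeruli 561 members (12%, interval 11.1% to 13%) ranked higher after ADR, against 17.6% of the 13232 regions common to both lists. Lower after ADR were 1096 members (23.5%), against 17.8% of the common regions. The median member stood at the 74th percentile of ADR glomeruli and the 78.5th percentile of PBS glomeruli. The part of this position in the counts was not tested.

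In podocytes the counts were lower. On day 9 against PBS, 255 members (5.47%) ranked higher, against 8.58% of the 20043 common regions, and 124 (2.66%) ranked lower, against 6.98%. The median member stood at the 83.5th percentile on day 9 and the 83.2nd in PBS podocytes, too high to rise by 25 points. The part of this position in the counts was not tested. On day 14 against PBS, 457 members (9.79%) ranked higher, against 12.1% of the 6308 common regions, and 465 (9.97%) ranked lower, against 10.4%. On day 14 against day 9, 227 members (4.86%) ranked higher, against 7.82% of the 6547 common regions, and 321 (6.88%) ranked lower, against 7.68%. Members are most of the common regions in the day 14 comparisons, so the shares there are close by construction.

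Between PBS podocytes and PBS glomeruli, 677 members (14.5%) ranked higher in podocytes, against 15.4% of the 18613 common regions, and 263 (5.64%) ranked lower, against 15.9%. Here the median member stood at the 82.2nd percentile of PBS podocytes and the 80.3rd of PBS glomeruli, and the part of this position was not tested either. Ranked by the caller's p-value, 158 members were lower in podocytes. With both directions counted together, the largest number of members changed place between ADR and PBS glomeruli and the smallest between day 9 and PBS podocytes. Each comparison was ranked over its own common regions, so these counts are not on the same scale. Ranked among the members alone, the order was kept better between day 14 and day 9 (rho 0.872) than between day 9 and PBS podocytes (rho 0.779).

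**Figure D5:**
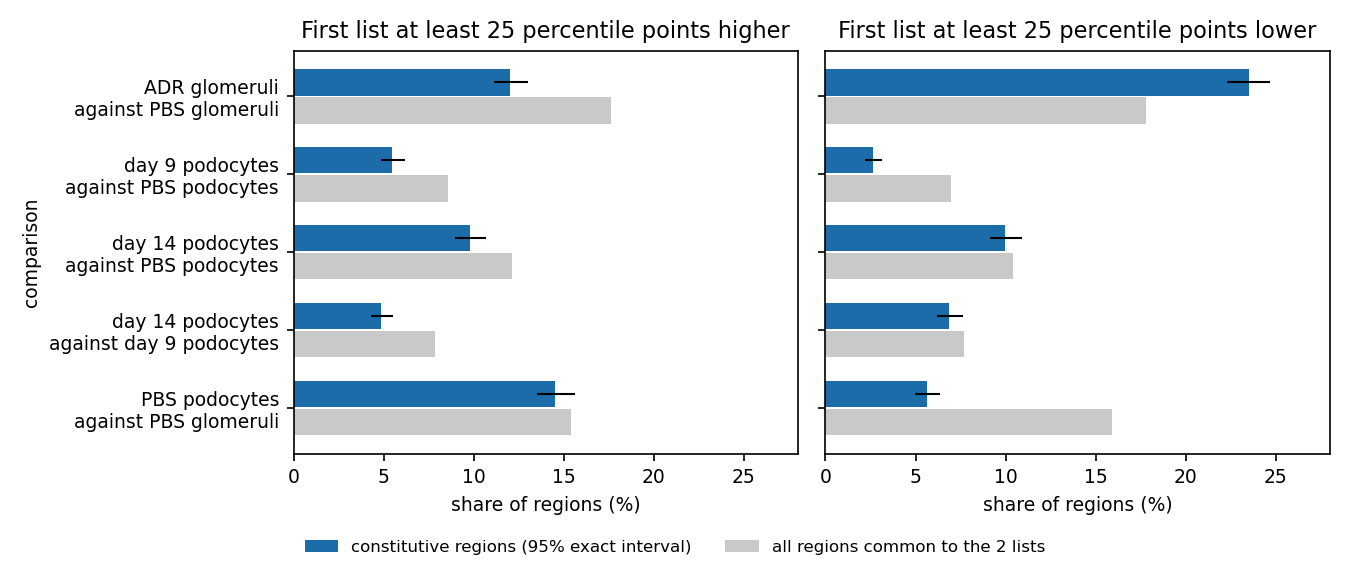
Share of regions (%) that ranked at least 25 percentile points higher (left) or lower (right) in the first list of a comparison, for constitutive regions and for all regions common to the 2 lists; the lines are exact 95% intervals for the constitutive regions. The longest bar is that of members lower in ADR than in PBS glomeruli, 23.5%.

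The members with the largest differences, ranked here among the 4666 members, were firmly called on the high side. At chr7:104115411-104116278 the fold was 4.69 in ADR glomeruli and 32.2 in PBS glomeruli, a difference of -95.6 percentile points. The podocyte folds of this region were 40.1 with PBS, 29 on day 9 and 6.71 on day 14, so that its place was also lower on day 14, at the 51.7th percentile, than in PBS podocytes, at the 94.3rd. At chr5:99873559-99874632 the fold was 4.42 in ADR glomeruli and 30.2 in PBS glomeruli, while its percentile in podocytes was 96.7 with PBS, 95.3 on day 9 and 93 on day 14. This region was thus among the strongest in podocytes at each point and among the weakest in ADR glomeruli, with 5 summits within 16 bp.

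In the other direction, chr1:64647752-64648340 had a fold of 23.2 in ADR glomeruli and 4.68 in PBS glomeruli, a difference of 89.2 percentile points. Its percentile in podocytes was 14.9 with PBS, 51.1 on day 9 and 35.5 on day 14, so that it stood higher after ADR in both settings. At chr7:120307940-120308701 the fold was 21.8 in ADR glomeruli and 5.29 in PBS glomeruli, and the podocyte percentiles were 44.1 with PBS, 95.9 on day 9 and 91.8 on day 14. This region too stood higher after ADR in each of the 3 comparisons with PBS.

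In podocytes 1 region led both comparisons with PBS. At chr15:33836647-33837445 the fold was 6.21 in PBS podocytes, 73.9 on day 9 and 19.8 on day 14. Its percentile was 4.67 in PBS podocytes, 97.5 on day 9 and 95.4 on day 14, and the difference from PBS was 92.8 points on day 9 and 90.8 points on day 14. In glomeruli its fold was 12.8 with ADR and 8.69 with PBS, and its 5 summits lay within 12 bp. The region chr3:27225417-27226023 behaved alike, with podocyte folds of 5.97 with PBS, 48.6 on day 9 and 13.7 on day 14, and was the third in the day 9 comparison and the second in that of day 14.

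Against PBS podocytes, the largest downward differences were smaller than the upward ones. At chr6:64188656-64189282 the fold was 9.91 on day 9 and 22.5 in PBS podocytes, a difference of -66.4 points, and the region stood at the 77.1st percentile in PBS podocytes, the 10.7th on day 9 and the 53.2nd on day 14. At chr12:53605667-53606483 the fold was 3.61 on day 14 and 21 in PBS podocytes, a difference of -65.1 points, and its glomerular folds were 4.93 with ADR and 19.8 with PBS. This second region stood low after ADR in glomeruli and on day 14, and at the 46.3rd percentile on day 9.

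Between day 14 and day 9 the extremes were chr14:79248046-79249328, 55.8 points higher on day 14, and chr11:116959320-116960487, with a difference of -62.8 points. The first of these held several peaks of each glomerular list and 1 peak of each podocyte list, and its 5 summits spread over 601 bp. Between PBS podocytes and PBS glomeruli the extremes were chr17:23966119-23966956, with folds of 35.1 in podocytes and 5.83 in glomeruli, and chr13:17896742-17897789, with folds of 6.34 in podocytes and 27.2 in glomeruli.

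Whether the same members changed place in glomeruli and in podocytes could be read from comparisons that share no list. Of the 255 members that ranked higher on day 9, 84 also ranked higher after ADR in glomeruli, which is 32.9% of the day 9 members and 15% of the 561 glomerular ones. Of the same 255, 40 (15.7%) ranked lower in glomeruli. Of the 124 members that ranked lower on day 9, 28 (22.6%) ranked higher after ADR in glomeruli and 16 (12.9%) ranked lower. Ranked by the caller's p-value, 74 members were lower on day 9, and 9 of them were lower in glomeruli too. Among all members, 12% ranked higher and 23.5% lower in glomeruli.

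On day 14, 102 of the 457 higher members (22.3%) ranked higher after ADR in glomeruli and 99 (21.7%) ranked lower. Of the 465 members lower on day 14, 36 (7.74%) ranked higher in glomeruli and 148 (31.8%) ranked lower. Over all members the rank difference in glomeruli was nearly unrelated to that in podocytes, with a rho of -0.0588 for day 9 and 0.0696 for day 14. Day 9 and day 14 share PBS podocytes as their control, and the counts at the 2 days are not independent.

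Constitutive regions were found on each autosome and on the X chromosome at a nearly even share of the regions there. The share was lowest on chromosome 19, at 10.2% (interval 8.64% to 11.8%), and highest on chromosome 14, at 12% (interval 10.4% to 13.7%). The X chromosome held 93 members, 11.2% of its regions. The density of members was less even, between 0.559 per Mb on the X chromosome and 2.8 per Mb on chromosome 11, so that it followed the density of regions. Of 26 regions on the Y chromosome and 6 on the mitochondrial sequence, 0 were members. Only 3 lists had a peak on the Y chromosome, and only 3 on the mitochondrial sequence. A member needs a peak of every list, so no region there could be one, and the share there could not be estimated.

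Members were closer to other regions than the remaining regions were. Another merged region lay within 10 kb, centre to centre, of 71.8% of members (interval 70.5% to 73.1%), against 63% of regions of 4 lists, 65.2% of 3 lists, 61.9% of 2 lists and 60.9% of 1 list. The median distance to the nearest region was 3.78 kb for members and between 5.17 and 6.14 kb for the others. To the nearest other member it was 46.4 kb (quartiles 12.7 and 163), and 995 members (21.3%) had another within 10 kb. The longest gap was 7.84 Mb.

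In windows of 100 kb, 3297 of the 12170 windows with a region held a member. Of these, 2362 held 1 member, 646 held 2, 194 held 3 and 95 held 4 or more. The fullest window, chr11:98600001-98700000, held 8 members among 28 regions, and chr7:114800001-114900000 held 7 among 16. The other 3 named windows, chr4:132600001-132700000, chr7:72500001-72600000 and chr12:70500001-70600000, held 6 each. Such windows were not made of leading members alone: in the fullest, the fold ran between 6.93 and 16.8 in ADR glomeruli, 6.48 and 20.1 in PBS glomeruli, 7.37 and 30.7 in PBS podocytes, 8.52 and 31.5 on day 9 and 3.03 and 8.42 on day 14.

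Neighbouring members tended weakly to change place together. For pairs of adjacent members within 10 kb (546 pairs), the rho of their rank differences was 0.216 for ADR against PBS glomeruli, 0.283 for day 9 and 0.227 for day 14 against PBS podocytes, and 0.186 for day 14 against day 9. At 10 to 100 kb (1494 pairs) it was 0.13 for the glomeruli, 0.138 for day 9 and 0.0686 for day 14 against PBS podocytes, and 0.0677 for day 14 against day 9. At 100 to 1000 kb (1961 pairs) no comparison exceeded the 0.0531 of day 9 against PBS podocytes. The rho thus fell with distance in these comparisons. For PBS podocytes against PBS glomeruli it was 0.0655 within 10 kb, 0.0855 at 10 to 100 kb and -0.023 beyond. Adjacent regions share local background in the caller, and its part was not tested.

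By chromosome, the median rank difference of members between ADR and PBS glomeruli ran between -6.43 points on the X chromosome and 8.06 points on chromosome 11. Between day 14 and PBS podocytes chromosome 11 lay at the other end, at -4.73 points. These shifts are small beside the 25 points used to count single regions.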

How the data were processed

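WT1 ChIP-seq peaks were taken as deposited, 1 list for each of 5 groups defined by the sample titles. Per the submitters' processing notes, alignment used Bowtie 0.12.7, the build was mm9 and peaks came from MACS2. Not given in the sources used here are the MACS2 version, the way replicates were combined, the control, the treatment of duplicates and the cutoff. The labels' protocols give 3 experiments for reporter mice, but 2 libraries carry the label of day 9 and 2 that of day 14.

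The fold enrichment of a peak, a ratio over background, is the authors' deposited value. The −log10 p and −log10 q of a peak are the authors' deposited values too. The integer score deposited by the authors entered no result. Starts, ends and summits were read from the deposited lists and are given 1-based.

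Peaks of all lists were merged when they overlapped or touched, and a region's value in a list was that of its strongest peak by fold. Ranks were taken among members, or among all regions common to 2 lists for the counts of differences of 25 percentile points. Shares have exact Clopper-Pearson 95% intervals. The members, lists and comparisons were chosen with earlier results of these data known. Regions were named by a rule: the 10 best and 3 worst by mean rank, the 3 highest and 3 lowest in each of 5 comparisons, the 5 widest, the 5 with most peaks, the 3 tightest summit spreads among the 50 best, the 3 lowest −log10 q and the 5 fullest windows; the text gives the leading ones of each. No genome or annotation of mm9 was used, so motifs, gene starts, gene lists and sequences were not analysed here. Alternatives were a stricter q, other merging rules, trimmed lists, the caller's p-value and other distances. The code was tested on simulated data. Figures were drawn with matplotlib 3.10.9, and values computed with pandas 2.3.3, scipy 1.17.1 and numpy 2.4.6 under Python 3.11.15.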

Additional observations from a re-analysis of the deposited data

How the results depend on the processing

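No paired analysis was possible because the libraries of a group stand in 1 joint peak list, which also left no replicate to drop. A −log10 q of at least 10 in each list left 2714 constitutive regions and lists trimmed to the shortest left 2541, while leaving out the day 14 list, an alternative added after seeing the data, gave 10402. With the stricter q the share of regions with 1 peak per list was 92.3%, and merging across 100 bp gave 85.1%. The median summit spread was 45 bp with the stricter q. Spearman's rho with the stricter q and by the caller's p was 0.197 and 0.442 for ADR with PBS glomeruli, 0.815 and 0.747 for day 9 with PBS podocytes, 0.819 and 0.732 for day 14 with PBS podocytes, 0.903 and 0.824 for day 14 with day 9, and 0.513 and 0.691 for PBS podocytes with PBS glomeruli. The share of members with another region nearby was 62.5% with the stricter q, 56.6% at 5 kb and 94.9% at 50 kb. By the caller's p, added after seeing the data, 74 members ranked lower at day 9, 158 ranked lower in PBS podocytes than in PBS glomeruli and 9 ranked lower both after ADR in glomeruli and at day 9. The causes were not tested. Of the alternative values computed, 25 stayed within the spread or factor set for them and 23 moved beyond it, among them the rho of neighbouring members within 10 kb for ADR against PBS glomeruli, 0.306 by the caller's p. The alternatives for motif windows, gene-start distances and gene lists were not run for want of a genome and annotation of the build.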

Other observations

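The authors' fold enrichment and the caller's −log10 p did not order the constitutive regions alike in every list. Over the 4666 regions Spearman's rho between fold and −log10 p was 0.981 in ADR glomeruli, 0.946 in PBS glomeruli, 0.765 in PBS podocytes, 0.785 on day 9 and 0.822 on day 14.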
